A study of Mus musculus with 576 samples.

Results

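The BCL2 family genes examined here are 10 genes that set the balance between survival and death at the mitochondrion. They are the survival genes Bcl2l1 (which encodes BCL-XL), Mcl1 and Bcl2, the pore-forming effectors Bax and Bak1, and the BH3-only genes Bid, Bad, Bcl2l11 (BIM), Bbc3 (PUMA) and Pmaip1 (NOXA). Members were the rows of the deposited count table with these symbols. All 10 were found among 49466 genes, each as 1 row, and all 10 passed the filter on low counts that left 20040 genes for testing.

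The cells came from the liver of C57/Bl6J mouse embryos at embryonic day 14.5. Depletion of cells bearing CD41, CD16/32, Sca-1, Ter119, CD11b, Ly-6G, CD45R or CD3e and a sort with CD117, CD71 and CD24 enriched for burst forming unit-erythroid (BFU-E) cells, the early committed red cell progenitors, before culture. All groups were then cultured in erythropoietin (2 U/mL), stem cell factor (100 ng/mL) and IGF1 (40 ng/mL), a growth factor related to insulin. Control cells received nothing more and were taken after 24, 48 or 72 hours (days 1, 2 and 3), and dexamethasone cells received 100 nM of this synthetic glucocorticoid over the same times. Each of these 6 groups is 1 plate of 96 wells with its own suffix in the column names, possibly a sequencing lane. Group, plate and suffix thus cannot be told apart. The labels do not say whether plates came from separate animals or cultures.

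BCL2 family proteins meet at the outer mitochondrial membrane. BAX and BAK1 can open pores in it and release cytochrome c, the survival proteins hold them and the BH3-only proteins back, and BH3-only proteins relay stress by occupying the survival proteins or engaging the effectors. In the red cell lineage BCL-XL is known as the member that maturing erythroblasts need to survive, and it lies downstream of erythropoietin and STAT5 signalling as well as GATA1.

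After filtering, 92 to 96 cells per plate remained, with a median of 922603 to 1244030 counts per cell and plate. Plates held 88158700 to 116555000 counts on the tested genes. Erythroid maturation differed between plates: the summed level of 18 late erythroid genes (globin, membrane skeleton and heme synthesis genes) was 4322, 18955 and 29876 CPM, the counts of a gene relative to the library total, on control days 1, 2 and 3 and 3319, 5439 and 10895 CPM with dexamethasone. Markers of other lineages were uneven. The 12 neutrophil and monocyte markers summed to 1388, 3.64 and 1871 CPM on the control plates and 338, 551 and 601 CPM on the dexamethasone plates, with 8 of the 12 at 0 on control day 2. Cells with at least 2 of these markers at 5 CPM numbered 21, 0 and 19 among controls and 11, 6 and 10 with dexamethasone. Mast cell and basophil markers stood out on dexamethasone day 2 at 846 CPM against 2.80 to 56.1 CPM elsewhere, and megakaryocyte markers spanned 80.2 to 373 CPM. In these plate sums, fewer cells of a type and less RNA per cell cannot be told apart.

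Sequence upstream of the start site is shown for the 2 members on which the results below mostly turn, Bcl2l1 and Bax, as the 250 bases before an annotated start. The windows are from RefSeq (GRCm38.p6), and 15 windows of 9 of the 10 members were searched. Pmaip1 was left out of this search. Both genes lie on the minus strand, and each line reads 5′ to 3′ toward the start. Bcl2l1 spans chr2:152780668-152831728 and the window chr2:152831729-152831978 lies before its most upstream start. Bax spans chr7:45461697-45466898, and its window chr7:45466899-45467148 also lies within Gm45808, outside the exons of that gene. Capitals mark the single match to the p53 half-site found in them, 201 bases before the start of Bax.
Bcl2l1: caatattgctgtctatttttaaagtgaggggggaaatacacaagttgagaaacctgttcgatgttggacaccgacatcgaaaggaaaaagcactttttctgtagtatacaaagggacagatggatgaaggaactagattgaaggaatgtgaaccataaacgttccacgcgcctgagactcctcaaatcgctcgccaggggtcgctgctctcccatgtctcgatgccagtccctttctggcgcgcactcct
Bax: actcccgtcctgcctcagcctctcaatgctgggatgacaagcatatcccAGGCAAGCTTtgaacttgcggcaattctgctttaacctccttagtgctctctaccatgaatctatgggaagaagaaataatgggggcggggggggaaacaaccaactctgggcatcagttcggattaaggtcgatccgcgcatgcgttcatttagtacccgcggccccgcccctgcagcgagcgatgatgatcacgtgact
In all, 5 motifs were searched on both strands: AGATAA and TGATAA (letters of GATA factor sites), TTCNNNGAA (STAT5), AGAACA (part of the glucocorticoid receptor site) and the p53 half-site, a palindromic pattern whose matches read on both strands. Among 32851 windows of the same length, 9.99%, 7.94%, 7.02%, 16.1% and 7.13% held them, in that order. Across the 3 Bcl2l1 windows, 1 match was found, an AGATAA 41 bases before the start at 152828489, in a window that overlaps an exon of another Bcl2l1 transcript and is not printed. These matches are letters in a window and no evidence of binding.

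Per kilobase of exon, Bax was the most abundant member at a mean of 106 CPM per kb over the 6 plates (65.7 to 154). Bid followed at 31.5 (25.04 to 36.2) and Bcl2l1 at 27.1 (8.36 to 81.8), and the ranges of these 2 overlap. The highest Bcl2l1 plate also lay above the lowest Bax plate. Mcl1 (12.2), Pmaip1 (11.4) and Bad (9.55) formed a middle group with overlapping ranges, while Bak1 (2.66), Bbc3 (2.13), Bcl2l11 (1.40) and Bcl2 (1.09) were lowest. The order of neighbours within each of these groups is thus not separated by the spread over plates.

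**Figure D1:**
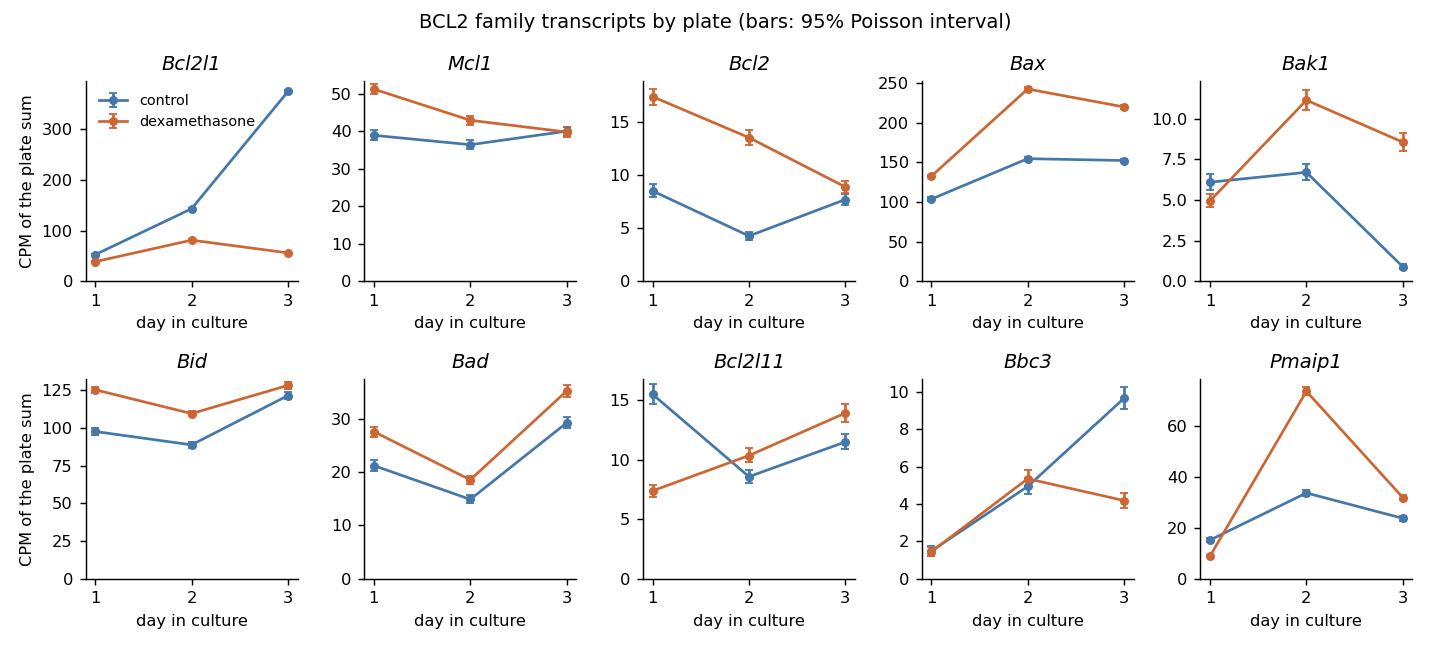
Level of each member by plate, in CPM scaled by trimmed means (vertical axis, from 0, its own scale in each panel) against day in culture (horizontal axis), for control and dexamethasone plates; points are plate sums and bars are 95% Poisson intervals, which cover counting error only. Bcl2l1 stood at 375 CPM on control day 3 and between 38.3 and 81.04 CPM with dexamethasone, and Bak1 was lowest on control day 3 at 0.883 CPM.

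Bcl2l1 showed the widest treatment difference of the survival genes on day 3, while Bcl2 differed more on days 1 and 2. The Bcl2l1 level was 52.3, 143 and 375 CPM on control days 1, 2 and 3 and 38.3, 81.04 and 55.8 CPM on the matching dexamethasone days, in plates of 4615 to 42054 Bcl2l1 counts. Each dexamethasone plate lay below the control plate of its day, with the widest gap on day 3: the log2 ratio of dexamethasone to control was -0.45, -0.82 and -2.75. The groups overlap as a whole, since control day 1 lay below dexamethasone days 2 and 3.

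Over the 3 days the fitted difference of Bcl2l1 was -1.31 on the log2 scale (SE 0.52), with an adjusted p of 0.494 by edgeR's quasi-likelihood test and Benjamini-Hochberg adjustment. No gene of the 20040 passed this test (0% called), although 2070 genes (10.3%) had an unadjusted p under 0.05. DESeq2 called 1258 of 16931 genes (7.43%), and 2 of the 10 members were among them, Bcl2l1 (adjusted p = 0.0272, DESeq2) and Bax. The Bcl2l1 difference rested much on day 3: it was -0.64 without the control day 3 plate and -0.65 without the dexamethasone day 3 plate. A straight-line change of the difference over the days had a slope of -1.15 per day (SE 0.29, edgeR adjusted p = 0.728, DESeq2 adjusted p = 0.00917). For this slope edgeR called 0 of 20040 genes (0%), with 1131 (5.64%) at an unadjusted p under 0.05, and DESeq2 called 176 of 15766 (1.12%), with Bcl2l1 as the only member.

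The Bcl2l1 level of single cells was broad on control day 3. The median cell held 34.3, 87.5 and 74.7 CPM on control days 1 to 3 and 22.7, 72.5 and 36.4 CPM with dexamethasone, so the day 3 medians differ far less than the plate sums. The upper tails lay further apart: the 90th percentile was 168, 358 and 1248 CPM in controls against 111, 190 and 131 CPM with dexamethasone. On control day 3 the 5 highest cells held 40.0% of all Bcl2l1 counts, and the top cell reached 6633 CPM. A low group sat beside this tail, with 28 of the 93 control day 3 cells holding some Bcl2l1 counts but under 10 CPM, a threshold chosen after the values were seen. Thus 100% of control day 3 cells had a count (95% Clopper-Pearson interval 96.1 to 100), while 69.9% reached 10 CPM, close to the 71.3% of dexamethasone day 3 cells.

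**Figure D2:**
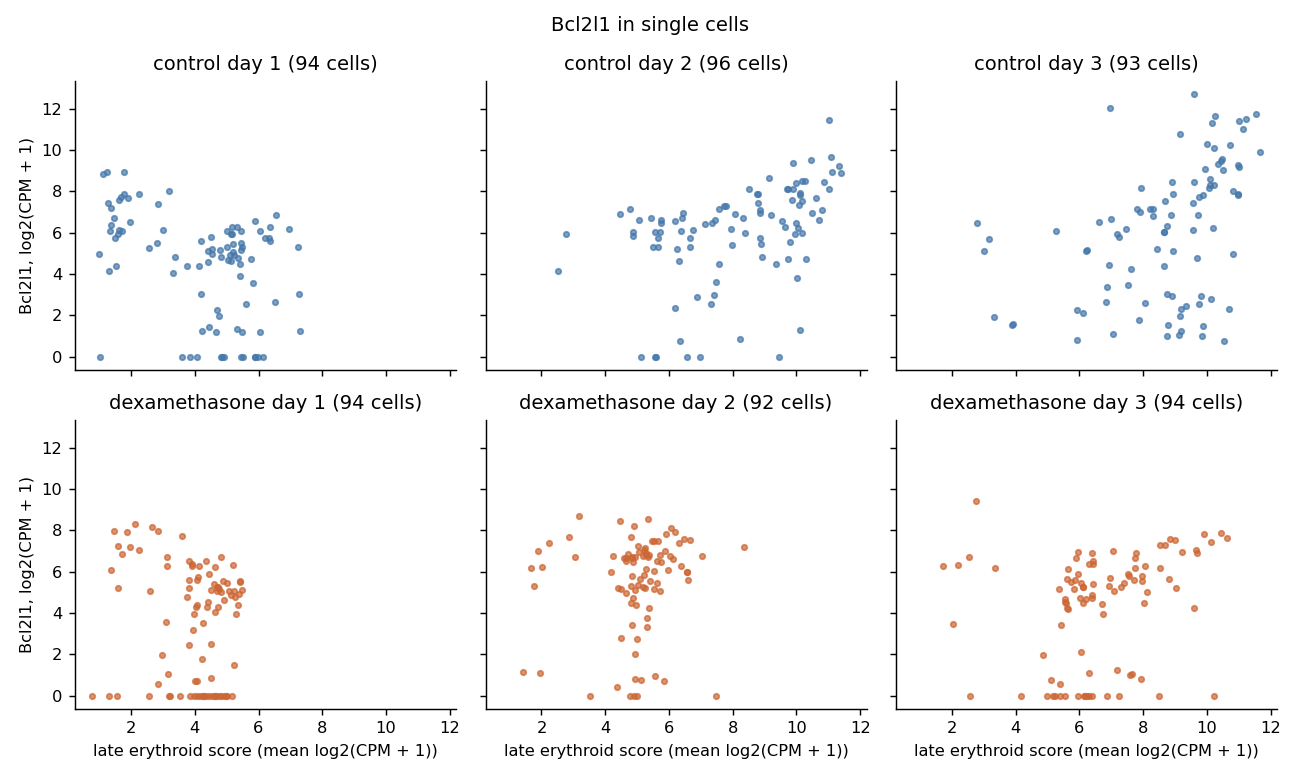
Bcl2l1 in single cells, as log2(CPM + 1) (vertical axis), against the late erythroid score, the mean log2(CPM + 1) of 18 late erythroid genes (horizontal axis), in 1 panel per plate; each point is a cell. On control days 2 and 3 cells with a high score include the cells of highest Bcl2l1, up to 6633 CPM, and control day 3 also has cells of high score with under 10 CPM.

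Bcl2l1 level went with maturation in part. Cells were put into 5 equal bins of the late erythroid score, and mean Bcl2l1 over all plates was 87.2, 42.8, 51.1, 102 and 463 CPM from the lowest bin to the highest. A single cell raised the fourth of these from 65.5 CPM. The bin means were 98.3, 39.4, 33.2, 130 and 506 CPM for control cells and 79.9, 44.1, 62.1, 62.6 and 128 CPM for dexamethasone cells. The highest bin holds 100 control and 13 dexamethasone cells, so the pooled means mix treatment with maturation. The lowest bin thus lay above the next in each treatment. On control day 1, cells with neutrophil and monocyte markers averaged 116 CPM (21 cells). Unmarked cells, those below the cutoffs of the neutrophil, megakaryocyte and mast cell classes, averaged 38.3 CPM (63 cells). The cutoffs were 2 neutrophil and monocyte, 3 megakaryocyte or 2 mast cell markers at 5 CPM, so unmarked cells may still carry fewer markers. How marked cells fall over the bins was not examined. Within the top bin, days differed among controls, with 272 CPM on day 2 (46 cells) and 706 CPM on day 3 (54 cells). That bin spans scores of 8.75 to 11.7. Scores were not matched between days within it, and both means keep their highest cells. In the fourth bin on day 3, the one late bin with at least 20 cells in both treatments, the mean was 218 CPM in 27 control cells and 51.4 CPM in 37 dexamethasone cells, a log2 ratio of -2.06. A single control cell of 4106 CPM carried most of this: without the highest cell of each plate's bin the control mean was 67.99 CPM and the log2 ratio -0.48, and the medians were 60.5 and 42.01 CPM. Among unmarked cells the plate means of Bcl2l1 were 38.3, 167 and 446 CPM for controls and 24.1, 87.4 and 48.4 CPM with dexamethasone. The order within each day is thus as before. Spearman's rank correlation of Bcl2l1 with the score ranged from -0.33 to 0.53 over the 6 plates, as a description over cells that share library and depth.

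Mcl1, a short-lived survival protein of early progenitors, varied little between plates. It was at 38.95, 36.4 and 40.1 CPM on control days 1 to 3 and 51.3, 42.97 and 39.8 CPM with dexamethasone. The plates overlap on day 3, and the fitted dexamethasone difference was 0.21 (SE 0.16, edgeR adjusted p = 0.702). In single cells it had a more visible pattern, with a median of 4.82 CPM on control day 3 against 23.1 to 47.04 CPM on the other plates. Only 41.9% of control day 3 cells reached 10 CPM, against 77.7% with dexamethasone. Bcl2l1 and Mcl1 ran weakly against each other over the cells of every plate, with a rank correlation from -0.28 to -0.03. In the top maturation bin mean Mcl1 was 30.5 CPM, below the 41.5 to 49.7 CPM of the other bins, but the 13 dexamethasone cells in it averaged 49.1 CPM and the 100 control cells 28.1 CPM.

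Bcl2, the founding survival gene, was low throughout and higher with dexamethasone. The control plates held 8.48, 4.25 and 7.68 CPM and the dexamethasone plates 17.4, 13.5 and 8.86 CPM. Every dexamethasone plate lay above every control plate, as was the case for 7.14% of the tested genes. The log2 ratio was 1.03, 1.66 and 0.21 on days 1, 2 and 3 and the fitted difference 0.97 (SE 0.39, edgeR adjusted p = 0.497, DESeq2 adjusted p = 0.166).

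Few cells carried these Bcl2 counts. Cells with a count made up 26.6%, 7.29% and 18.3% of the control plates and 43.6%, 38.04% and 27.7% of the dexamethasone plates. A single cell held 63.3% of the Bcl2 counts on control day 2 and another 43.1% on dexamethasone day 1. Bcl2 was highest in the least mature cells. Its mean over the 5 maturation bins was 25.4, 9.93, 9.89, 4.11 and 0.203 CPM, and its rank correlation with the score was negative on every plate, from -0.44 to -0.07. On control day 1 cells with neutrophil and monocyte markers averaged 23.9 CPM, and cells with megakaryocyte markers 23.7 CPM (19 cells). On dexamethasone day 1 cells with megakaryocyte markers averaged 11.2 CPM, below the 18.6 CPM of the unmarked cells of that plate. Without their highest cell those unmarked cells averaged 9.97 CPM, below the marked ones. Unmarked cells held 3.62, 2.51 and 0.0872 CPM on the control days and 18.6, 11.3 and 6.08 CPM on the dexamethasone days. Averaged in the same way over all cells, day 2 held 2.51 CPM in controls and 16.11 CPM with dexamethasone. The ratio of dexamethasone to control was thus smaller among unmarked cells than among all cells on day 2. It was larger among unmarked cells on days 1 and 3, although 1 cell raised the dexamethasone day 1 value from 9.97 CPM. The part of the other lineages in these differences was otherwise not tested.

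**Figure D3:**
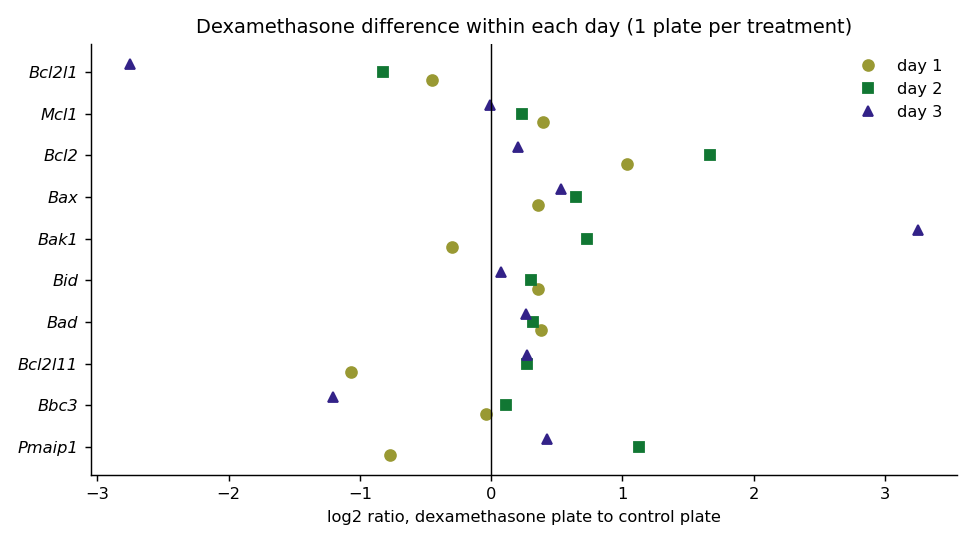
Difference between dexamethasone and control for each member on each day, as the log2 ratio of the plates (horizontal axis, prior count of 2), with 1 plate per treatment and day and so no error bar. Bcl2l1 lies left of 0 on all 3 days, Bcl2, Bax, Bid and Bad lie right of 0 on all 3, and Bak1 reaches 3.25 on day 3.

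Bax, the effector that waits in the cytosol until activated, was the most evenly expressed member and was higher with dexamethasone on each day. It was at 104, 155 and 152 CPM on control days 1 to 3 and at 132, 243 and 220 CPM on the dexamethasone days. Both treatments had more on days 2 and 3 than on day 1. Its log2 ratios were 0.35, 0.65 and 0.53, and the fitted difference was 0.51 (SE 0.12, edgeR adjusted p = 0.457, DESeq2 adjusted p = 0.0351). Of the 10 members, 4 were higher with dexamethasone on all 3 days (Bcl2, Bax, Bid and Bad), where 19.1% of the tested genes were, and 1 was lower on all 3 (Bcl2l1), where 16.2% were.

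Nearly every cell had Bax counts, from 96.8% to 100% of cells on each plate. Median cells held 92.4, 128 and 122 CPM on the control days and 122, 246 and 215 CPM on dexamethasone days, so the plate difference was present in the typical cell. Bax peaked at middle maturation, with 109, 199, 201, 196 and 124 CPM over the 5 bins, and its rank correlation with Cdkn1a, a p53 target, was positive on each of the 6 plates (0.10 to 0.42). The overlapping gene Gm45808 had at most 8 counts on any plate.

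Bak1, the effector resident on mitochondria, was low and had 1 plate that stood apart. It was at 6.10, 6.71 and 0.883 CPM on control days 1 to 3, the last from 99 counts, and at 4.94, 11.2 and 8.57 CPM with dexamethasone. The log2 ratio turned from -0.30 on day 1 to 0.73 and 3.25. The slope of the difference was 1.79 per day (SE 0.48, edgeR adjusted p = 0.728, DESeq2 adjusted p = 0.164). Over the 3 days the fitted difference was 1.17 (SE 0.85, edgeR adjusted p = 0.686), and it was 0.21 without the control day 3 plate and 0.20 without the dexamethasone day 3 plate.

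The control day 3 value of Bak1 was low in cells of every kind examined. The share of cells with a count was 74.5%, 57.3% and 22.6% on the control days and 81.9%, 91.3% and 76.6% on the dexamethasone days. In the fourth maturation bin Bak1 was at 0.782 CPM on control day 3, 9.97 CPM on control day 2 (29 cells) and 8.38 CPM on dexamethasone day 3. Unmarked cells gave 0.727 CPM on control day 3 against 5.29 to 11.4 CPM on the other plates. With each cell thinned to 500000 counts the shares on day 3 were 16.5% of control and 70.8% of dexamethasone cells. Bak1 overlaps Ggnbp1 on the other strand, and Ggnbp1 held 0.386 to 2.87 CPM with 1.28 CPM on control day 3.

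**Figure D4:**
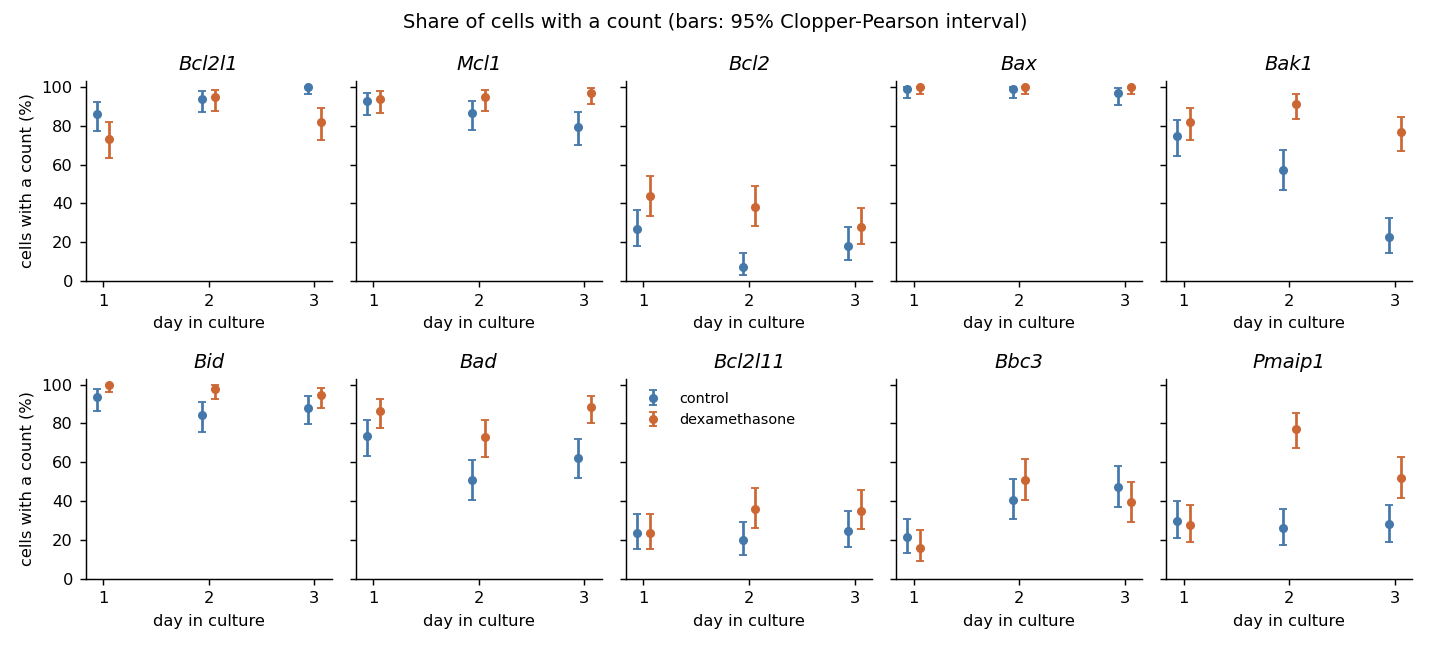
Share of cells with at least 1 count of each member (vertical axis, %) by day in culture (horizontal axis) for control and dexamethasone plates; bars are 95% Clopper-Pearson intervals over the cells of 1 plate, for counting error only. Bak1 is lowest on control day 3 at 22.6% of cells, and Pmaip1 stands at 77.2% on dexamethasone day 2.

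Bid and Bad, which link caspase 8 and growth factor signals to the mitochondrion, were higher with dexamethasone on each day by small amounts. Bid was at 97.8, 88.9 and 122 CPM on the control days and 125, 110 and 128 CPM on dexamethasone days, with log2 ratios of 0.36, 0.30 and 0.08. For Bad the values were 21.2, 14.9 and 29.2 CPM and 27.6, 18.5 and 35.2 CPM, with log2 ratios of 0.38, 0.32 and 0.27. Both had their lowest value on day 2 in each treatment. The fitted differences were 0.25 for Bid (SE 0.12, edgeR adjusted p = 0.537) and 0.32 for Bad (SE 0.17, edgeR adjusted p = 0.566).

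In the median cell these BH3-only genes separated further between treatments than in the sums. The median cell held 86.1, 39.6 and 34.1 CPM of Bid on control days and 120, 96.0 and 115 CPM on dexamethasone days. For Bad, cells with a count made up 73.4%, 51.04% and 62.4% of control and 86.2%, 72.8% and 88.3% of dexamethasone plates. Mean Bid was 62.4 CPM in the top maturation bin, below the 101 to 129 CPM of the others, and that bin holds 100 control and 13 dexamethasone cells. In the fourth bin on day 3, Bid (129 against 174 CPM) and Bad (25.6 against 28.8 CPM) were lower with dexamethasone, the opposite of the plate sums. Bid overlaps Bcl2l13, and Bad overlaps Gpr137, each on the other strand. Since the strand setting of the counting is not given, reads of such pairs may be exchanged or lost.

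Bcl2l11, which encodes the BH3-only protein BIM and is known as a glucocorticoid-responsive death gene in lymphoid cells, had no common direction. It was at 15.5, 8.58 and 11.5 CPM on control days 1 to 3 and at 7.39, 10.4 and 13.9 CPM on dexamethasone days. It was lower with dexamethasone on day 1 (log2 ratio -1.07) and slightly higher on days 2 and 3 (0.27 and 0.28). The fitted difference was -0.17 (SE 0.40, edgeR adjusted p = 0.937). A count was seen in 23.4%, 19.8% and 24.7% of control cells and 23.4%, 35.9% and 35.1% of dexamethasone cells. Thinned to 500000 counts per cell, the day 1 shares were 22.99% of control and 17.4% of dexamethasone cells. The 5 highest cells held from 30.6% (dexamethasone day 3) to 74.1% (control day 3) of the Bcl2l11 counts of a plate. On day 1 the log2 ratio of bin means was -1.17 in the lowest maturation bin and 0.33 in the next.

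Bbc3, a p53 and FOXO3 target that encodes PUMA, was higher on each later control day from a low start. It was at 1.48, 4.94 and 9.67 CPM on the control days and 1.45, 5.36 and 4.19 CPM with dexamethasone. The treatments lay close on days 1 and 2, with log2 ratios of -0.04 and 0.12, and parted on day 3 at -1.20. On day 3 the 5 highest cells held 45.7% of the Bbc3 counts in controls and 34.5% with dexamethasone. The share of cells that reached 10 CPM was close, at 19.4% in controls and 21.3% with dexamethasone. Mean Bbc3 was higher in each later maturation bin, from 1.53 through 2.59, 3.88 and 7.27 to 12.9 CPM, and its rank correlation with the score was positive on all 6 plates (0.06 to 0.32). In the fourth bin on day 3 it was 15.9 CPM in control and 5.71 CPM in dexamethasone cells, but without the highest cell of each the log2 ratio turned from -1.33 to 0.16. The fitted dexamethasone difference was -0.37 (SE 0.45, edgeR adjusted p = 0.835).

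Pmaip1, which encodes the MCL1-binding protein NOXA, had its highest plate sum in each treatment on day 2. It was at 15.2, 33.6 and 23.7 CPM on the control days and 8.87, 73.5 and 31.8 CPM on dexamethasone days. The log2 ratios were -0.77, 1.13 and 0.43, with no common direction, and the day 3 ratio was 1.95 without cells bearing neutrophil and monocyte markers. The fitted difference was 0.27 (SE 0.42, edgeR adjusted p = 0.882). The day 2 peaks differed in kind. On dexamethasone day 2, 77.2% of cells had a count and the median cell held 47.2 CPM, whereas on control day 2 26.04% had one and a single cell held 47.5% of the counts. Without that cell the control day 2 level lies below that of control day 3. On control day 3 the 19 cells with neutrophil and monocyte markers averaged 61.9 CPM (under 20 cells) and unmarked cells 7.24 CPM. The plate's level without those 19 cells was 7.77 CPM. Mast cell and basophil markers were highest on dexamethasone day 2. Its 9 cells with such markers averaged 107 CPM of Pmaip1 (under 20 cells) and its 73 unmarked cells 74.6 CPM. The part of other lineages in this peak was not tested. The rank correlation with Cdkn1a was positive on all 6 plates (0.03 to 0.36).

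Across days, 6 members were higher on day 3 than on day 1 in both treatments (Bcl2l1, Bax, Bbc3, Pmaip1, Bid and Bad), where 30.6% of the tested genes were. Bbc3 had the largest fitted difference of day 3 against day 1, at 2.17 (SE 0.56, edgeR adjusted p = 0.264, DESeq2 adjusted p = 0.00806). Bcl2l1 was at 1.80 (SE 0.65, edgeR adjusted p = 0.339, DESeq2 adjusted p = 0.00742) and Bax at 0.64 (SE 0.14, edgeR adjusted p = 0.231, DESeq2 adjusted p = 0.012). The Bcl2l1 value was 0.63 without the control day 3 plate and 2.75 without the dexamethasone day 3 plate. For this contrast edgeR called 0 of 20040 genes (0%), with 2907 (14.5%) at an unadjusted p under 0.05, and DESeq2 2061 of 17320 (11.9%), with 3 of the 10 members. Among the 4326 genes whose mean reached 50 CPM, edgeR called 545 (12.6%), and of the 3 members tested there Bax passed (adjusted p = 0.0495). For day 2 against day 1, edgeR called 0 of 20040 genes (0%), with 2446 (12.2%) at an unadjusted p under 0.05, and DESeq2 1550 of 16154 (9.6%). The members DESeq2 called there were Pmaip1 at 2.08 (adjusted p = 0.000812), Bax at 0.73 (adjusted p = 0.00443) and Bbc3 at 1.83 (adjusted p = 0.0404).

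**Figure D5:**
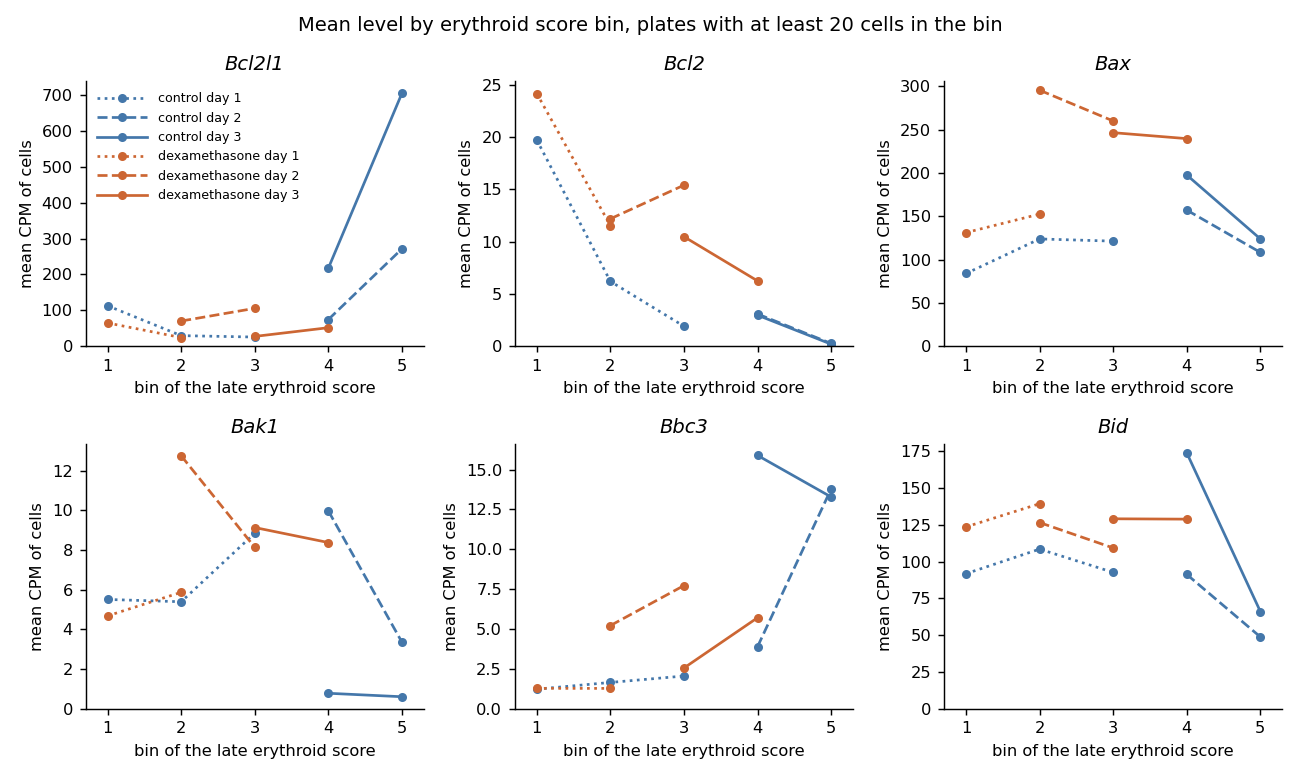
Mean CPM of 6 members (vertical axis, from 0) in 5 bins of the late erythroid score (horizontal axis, 1 is least mature), for each plate with at least 20 cells in the bin; color marks treatment and line style the day, and lines join bins of a plate. Bcl2l1 is highest in bin 5 on control days 2 and 3, Bcl2 is lowest in the late bins, and Bak1 on control day 3 stays at or below 0.782 CPM in both bins shown.

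Other genes of the pathway were read from lists of names, by count and median. Of 15 other BCL2 family genes 10 were tested, and their median dexamethasone difference was -0.34, beside 0.26 for the 10 members and 0.07 for all tested genes. None of the 10 was called by edgeR or DESeq2 for dexamethasone. For day 3 against day 1 DESeq2 called 3 of them, all higher: the mitophagy receptors Bnip3l and Bcl2l13 and the BH3-only gene Bik. Bik was very low, at 0.0893, 0.39 and 3.23 CPM on the control days and 0.283, 0.217 and 1.43 CPM with dexamethasone (edgeR adjusted p = 0.308). Bnip3l, which clears mitochondria from maturing red cells, was at 118, 232 and 436 CPM on the control days and 96.6, 185 and 177 CPM with dexamethasone. Bcl2l13 was at 195, 345 and 341 CPM and 160, 201 and 262 CPM. Both were lower with dexamethasone on each day, as Bcl2l1 was. Bnip3, a hypoxia-responsive relative, was at 13.6, 178 and 109 CPM and 24.7, 128 and 22.1 CPM, and the remaining named relative Bcl2l12 stayed between 9.34 and 14.4 CPM.

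Downstream of the pore, 13 apoptosome and caspase genes had a median dexamethasone difference of 0.21. The cytochrome c gene Cycs was higher with dexamethasone on each day (49.6, 39.1 and 42.3 CPM against 67.8, 60.9 and 53.3 CPM), and Htra2, a mitochondrial protease, was lower on each (210, 183 and 207 CPM against 170, 92.5 and 151 CPM). Dffb, the caspase-activated nuclease, was at 49.1, 72.8 and 40.6 CPM and 60.9, 97.8 and 68.4 CPM. Neither tool called Cycs, Htra2 or Dffb for dexamethasone. For day 3 against day 1 neither tool called any of the 13. In that contrast Casp9, the initiator caspase of the apoptosome, was at 0.60 (edgeR adjusted p = 0.322) and Dffa, the inhibitor of Dffb, at -0.31 (edgeR adjusted p = 0.558).

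Of 5 genes for inhibitors of apoptosis, none was called for dexamethasone by edgeR or DESeq2. Birc3, an NF-kB target, was higher with dexamethasone on each day (19.1, 13.5 and 16.04 CPM in controls against 24.9, 42.8 and 27.2 CPM), and Xiap, the main direct caspase inhibitor, was at 18.2, 16.6 and 19.4 CPM and 18.5, 31.4 and 25.7 CPM. Birc5, which also serves chromosome segregation, was at 185, 246 and 349 CPM in controls and 184, 100 and 183 CPM with dexamethasone. Birc2, a ubiquitin ligase of the TNF receptor complex, was the 1 gene of the 5 that DESeq2 called for day 3 against day 1 (0.59 by edgeR, edgeR adjusted p = 0.263, DESeq2 adjusted p = 0.038). The very large inhibitor gene Birc6 stayed between 129 and 239 CPM.

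In the death receptor pathway 9 of 10 listed genes were tested, with a median dexamethasone difference of 0.17, and neither tool called one for dexamethasone. The kinase gene Ripk1 was lower with dexamethasone on each day (19.6, 17.7 and 14.1 CPM against 11.8, 7.52 and 9.46 CPM). Tnfrsf10b, a receptor for TRAIL, Tradd, an adaptor, and Cflar, which restrains caspase 8, had fitted differences of 0.63, 0.45 and 0.53, with edgeR adjusted p-values of 0.51, 0.51 and 0.584. For day 3 against day 1, DESeq2 called 1 gene, Tnfsf10, which encodes TRAIL itself, as lower, at levels of 0 to 1.71 CPM. Casp8 and the receptor gene Tnfrsf1a were at -0.39 and 0.30 in that contrast (edgeR adjusted p = 0.618 and 0.712).

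Among 18 regulators and partners of the family, DESeq2 called 3 for dexamethasone: Tsc22d3 as higher and Pim1 and Foxo3 as lower. Tsc22d3, a glucocorticoid-induced gene (GILZ), was at 23.4, 24.8 and 37.6 CPM in controls and 81.6, 72.8 and 74.7 CPM with dexamethasone (1.45, SE 0.21, edgeR adjusted p = 0.457, DESeq2 adjusted p = 1.2e-06). Pim1, a kinase gene induced by STAT5 whose product phosphorylates BAD, was at 29.6, 61.8 and 137 CPM in controls and 13.9, 22.8 and 46.7 CPM with dexamethasone (-1.36, SE 0.16, edgeR adjusted p = 0.457, DESeq2 adjusted p = 3.7e-09). Its control plates are ordered by day as those of Bcl2l1 are. Foxo3, a transcription factor held back by growth factor signals, was at 78.3, 221 and 213 CPM and 63.6, 109 and 115 CPM (DESeq2 adjusted p = 0.0122). With only genes whose mean reached 50 CPM, edgeR called Tsc22d3 and Pim1 (adjusted p = 0.0392 for each), in a test that called 38 of 4326 genes (0.878%). Stat5a was higher with dexamethasone on each day (103.1, 55.4 and 43.5 CPM against 116, 112 and 93.01 CPM, DESeq2 adjusted p = 0.0519). For day 3 against day 1 DESeq2 called Pim1, Mdm2 and Foxo3 as higher and Ywhaz as lower; Mdm2, the ligase that degrades p53, was at 106, 235 and 321 CPM in controls and 83.01, 210 and 194 CPM with dexamethasone.

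The genes most like each member were sought, as a description, among 6832 genes whose mean reached 20 CPM. Over the 6 plates the log2 CPM of Bcl2l1 was closest to Nub1 (Pearson's r 0.993), Mlx (0.992) and Ube2h (0.991), over plates that include the control day 3 peak. Over 563 cells centred by plate it was closest to Ypel4 (0.339), Malat1 (0.332) and the globin gene Hba-a2 (0.327). For Bax the closest over cells were Rps27l (0.424), Ccng1 (0.403) and Gm15915 (0.369), and Rps27l and Ccng1 are known p53 targets. Bid was closest to Tomm5 (0.432), Srm (0.420) and Sdad1 (0.414). Bad was closest to Adsl (0.269), Pelp1 (0.252) and Ube2e1 (0.250), Pmaip1 to Plk2 (0.266), Coro2a (0.259) and Hhex (0.244), and Mcl1 to Nup54 (0.227), mt-Nd3 (0.223) and Psmb10 (0.222). Over plates Fau (0.992) and Uqcrq (0.99) were among the closest to Bax. The closest were Abracl, Alg14 and Fkbp3 for Mcl1 (0.993 to 0.985) and Aurkaip1, Fcf1 and Yif1a for Bid (0.996 to 0.993). For Pmaip1 they were 4932438A13Rik, Csnk1g1 and Tsc2 (0.979 to 0.974) and for Bad Pts, Cdc37l1 and Myl12b (0.992 to 0.981). Correlations over cells were weak, and those over 6 plates share plate, depth and maturation.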

How the data were processed

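Single cells were measured by polyadenylated RNA sequencing in 6 plates, 1 for each day and treatment. The authors deposited 1 count table with unnormalized read counts. The build GRCm38, the aligner STAR 2.4 and the counter featureCounts are named in the submitters' processing notes. How strand and multi-mapping reads were treated, and with which annotation release, was not given in the sources used here. No molecular identifiers are stated, so amplified copies are counted again and all Poisson and Clopper-Pearson intervals (95%) cover counting error only. The header holds 1 empty cell after the gene column, and it was left out. Names shifted by 1 column would move wells to other plates. As read, 4 of 4 glucocorticoid-induced genes (Tsc22d3, Fkbp5, Per1 and Mt2) were higher on every dexamethasone plate than on every control plate, and 0 of 4 with shifted names. Of 576 value columns 575 matched the labels, and 1 was not used. Of 96 index pairs, 95 recurred on all 6 plates.

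Wells with at least 50000 counts, at least 1500 genes and at most 20% mitochondrial counts were kept (563 cells, 12 wells removed), at 66140 to 3757116 counts per cell (median 1092431), and no doublet caller was run on these sorted wells. Cells of a plate are not replicates, so counts were summed per plate and tested with edgeR 4.0.16 (glmQLFit and glmQLFTest, TMM scaling, filterByExpr, 20040 genes) with day as a factor and dexamethasone as additive terms. This leaves 2 residual degrees of freedom. A second fit added dexamethasone times linear day (1 residual degree of freedom). P-values were adjusted by Benjamini-Hochberg over all tested genes with a threshold of 0.05, and they rest only on the spread between plates, part of which may be technical. The SE is the log2 fold change divided by the square root of F. DESeq2 1.42.0 was the alternative. Within a day, log2 ratios use a prior count of 2 and have no test. Mean fold-change estimates were checked on simulated counts with a single spread for all genes and no plate effects. Such counts are unlike these plates, so the check does not cover the calls.

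Coordinates and exon lengths are from GENCODE vM21 (GRCm38). All 10 members were named, and from each pathway list up to 4 genes with the smallest p for dexamethasone and for day 3 among those whose mean reached 5 CPM. Likeness was searched for members whose mean reached 20 CPM. A gene outside this rule that is 1 of few called was also named. The members and lists were chosen with earlier results of these data known. The alternatives tried were other scalings, filters, cell sets, thinning to 500000 counts (531 cells, 32 left out), designs and leaving out each plate. The grouping of cells by markers of other lineages (at 5 CPM, 2 neutrophil and monocyte, 3 megakaryocyte or 2 mast cell markers), the 10 CPM share and leaving out the highest cell of a group were chosen after seeing the data. Some items are not reported here.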

Additional observations from a re-analysis of the deposited data

Results flagged for a closer look

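For 3 members the dexamethasone difference pointed one way on day 1 and the other way on days 2 and 3. Each day has 1 plate per treatment, so these differences between days were not tested within days. Bcl2l11 had log2 ratios of dexamethasone to control of -1.07 on day 1, 0.27 on day 2 and 0.28 on day 3. Bak1 had -0.30, 0.73 and 3.25. Pmaip1 had -0.77, 1.13 and 0.43. For Bcl2l11 the day 1 ratio of bin means was -1.17 in the lowest maturation bin and 0.33 in the next. The straight-line slope over the days, the nearest test the design allows, had edgeR adjusted p-values of 0.775 for Bcl2l11, 0.728 for Bak1 and 0.841 for Pmaip1, and DESeq2 adjusted p-values of 0.875, 0.164 and 0.847.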

How the results depend on the processing

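In place of the 0 genes that edgeR called in each contrast, DESeq2 called 1258 for dexamethasone, 2061 for day 3 against day 1, 1550 for day 2 against day 1 and 176 for the slope. Restricting edgeR to a mean of at least 50 CPM gave 38, 545, 233 and 2, and to genes with a count in at least 10% of cells gave 87 for day 3. The other 43 counts of called genes, those without each plate included, were also 0. No member passed edgeR under any alternative except Bax for day 3 at the 50 CPM filter. Leaving out each plate turned the sign of some members that were never called: the dexamethasone difference ranged from -0.41 to 0.27 for Bcl2l11, from -0.18 to 0.78 for Pmaip1 and from -0.63 to 0.0377 for Bbc3. The day 3 difference ranged from -0.43 to 0.91 for Bcl2l11, from -2.54 to 0.51 for Bak1, from -1.14 to 0.0166 for Bcl2 and from -0.33 to 0.0085 for Mcl1, and the day 2 difference from -0.86 to 0.47 for Bcl2l11 and from -0.37 to 1.92 for Bak1. The cause was not tested. Thinning cells to 500000 counts turned 2 day 3 log2 ratios, to 0.0754 for Mcl1 and -0.0355 for Bcl2l11. The slope has no residual degree of freedom when a plate is left out, so that alternative was not run. No paired analysis was possible because each group is 1 plate sum and the numbers in the labels name wells. The fit already holds day as a term, which sets the plates of 1 day against each other. With 1 plate per group, the tests cannot separate a difference that varies by day from plate effects.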

Other observations

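Cells with markers of other lineages had their own pattern of the family. On control day 1 the 21 cells with neutrophil and monocyte markers averaged 116 CPM of Bcl2l1 and 23.9 CPM of Bcl2. The 63 unmarked cells averaged 38.3 and 3.62 CPM, while Bax was at 83.4 CPM in the marked and 115 CPM in the unmarked cells. On dexamethasone day 1 the 21 cells with megakaryocyte markers averaged 87.8 CPM of Bcl2l1 and 2.76 CPM of Bak1, against 24.1 and 5.29 CPM in the 67 unmarked cells. Bcl2 was at 11.2 CPM in these marked cells and 18.6 CPM in the unmarked cells. Without the highest unmarked cell, however, the unmarked mean of Bcl2 lay below the marked one. These are means over cells of 1 plate, with no test, and the remaining marked groups hold fewer than 20 cells.

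Pmaip1 and Mki67, a marker of cycling cells, had a negative rank correlation over the cells of every plate (-0.17 to -0.02), also with cells thinned to 500000 counts (-0.15 to -0.02). Those of Bcl2 and Mcl1 with Mki67 and of Bcl2l1 with the total count of a cell were negative on all 6 plates as counted, but thinning took their highest values to 0.0017, 0.0437 and 0.0485.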
